A study of Mus musculus with 12 samples.

Results

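In mouse bone marrow-derived macrophages (BMDMs), 49 genes were at least 2-fold higher after 1 h of fenoterol than in untreated cells and were back within 0.8 to 1.5 times the untreated level after 4 h. These transient genes were chosen by their measured values in these same libraries. A gene was kept if its mean over the 12 libraries was at least 2 CPM (a gene's counts scaled by the total of its library), if the ratio of mean CPM at 1 h to that in untreated cells was at least 2 and the ratio at 4 h lay in the window, and if its 1 h library was above the untreated library in each of the 4 mice. A pseudocount of 0.1 CPM was added to both means before each ratio was taken. The 49 genes were 0.464% of the 10566 genes with a mean of at least 2 CPM, among 53379 genes listed. Because the values at 1 h and 4 h chose the genes, they are given as a description, and test calls on them support nothing.

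Fenoterol is an agonist of the β2-adrenergic receptor, which couples to Gs and raises cyclic AMP. Cyclic AMP activates protein kinase A, and this kinase phosphorylates CREB, a transcription factor that binds the cAMP-responsive element (CRE), TGACGTCA. In macrophages as in other cells, the genes that respond earliest to such a signal include transcription factors, phosphatases, inhibitors of NF-κB and proteins that degrade mRNA. Many of these products act back on the pathway or on transcripts that it induced, and many of their own mRNAs carry AU-rich elements and turn over quickly.

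Bone marrow from femur and tibia of 4 male C57Bl/6J mice was grown into BMDMs for 1 week in medium conditioned by L929 cells. Cells of every mouse were left untreated or received 1 µM fenoterol for 1 h or 4 h with no change of medium, so each group held 4 libraries and the groups shared their mice. No vehicle-treated or mock-treated time point was analysed here, and the untreated cells served as the control for both times. The untreated libraries held 14580533 to 22580692 counts, the 1 h libraries 18288911 to 20549801 and the 4 h libraries 18446470 to 24153284. All 8 macrophage markers were present, and their summed level was 36000 to 41400 CPM in every library of every group. *Lyz2*, at 20100 to 26300 CPM, held most of this sum, and single markers differed more. The ratio to untreated at 1 h and 4 h was 4.98 and 5.81 for *Cd14*, 0.832 and 0.357 for *Mertk*, and 0.965 and 1.67 for *Fcgr1*. Neutrophil markers summed to 17.8 to 34.6 CPM, fibroblast markers to 24 to 73.6 CPM and dendritic cell markers to at most 2.08 CPM, with overlapping ranges in the 3 groups, and T cell, erythroid and mast cell markers to at most 0.177 CPM. The 5 B cell markers summed to 227 to 388 CPM without fenoterol, 130 to 248 CPM at 1 h and 27.7 to 67.1 CPM at 4 h. *Ighm*, the immunoglobulin heavy chain constant region, held nearly all of this sum, and the part of B cells in the values of the transient genes was not tested. In these bulk samples, fewer cells of a type and less RNA per cell cannot be told apart.

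At 1 h, 265 genes were at least 2-fold higher and higher in all 4 mice, and the 49 transient genes were 18.5% of them. Another 214 genes stayed above 1.5 times the untreated level at 4 h and are called sustained here, and 2 genes, *Mettl13* and *Maff*, were below 0.8 times. The 1 h ratio of the transient genes ran from 2.00 to 11.6 with a median of 2.61. It was 4 or more in 9 genes, 3 to 4 in 5 genes and 2 to 3 in 35 genes. Their 4 h ratio ran from 0.812 to 1.5 with a median of 1.26. In the plot of both ratios the transient genes lie in a narrow band that the rule cut out of a continuous cloud, and the sustained genes begin directly above it.

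**Figure D1:**
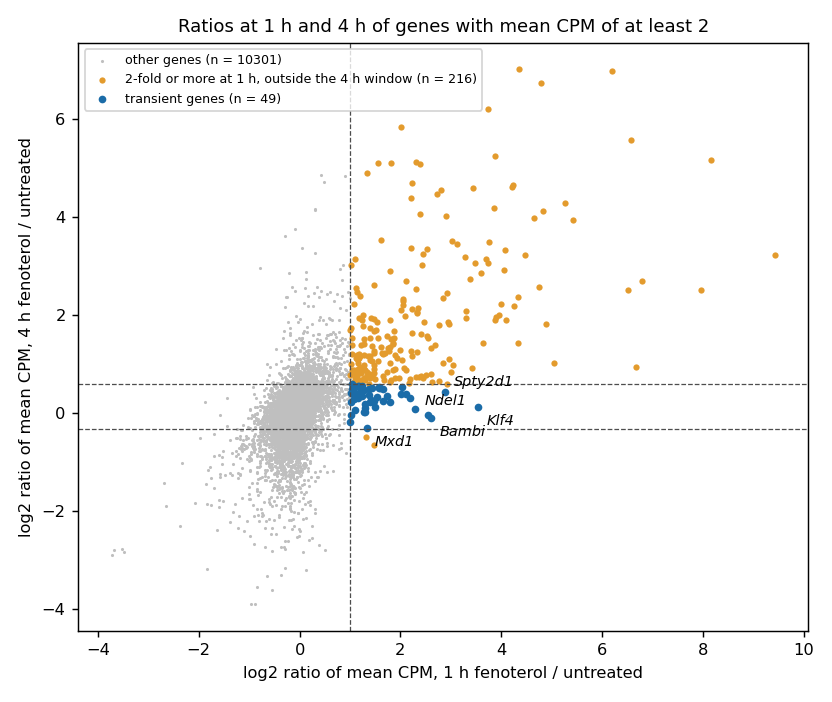
Each point is 1 gene with a mean of at least 2 CPM. The horizontal axis is the log2 ratio of mean CPM at 1 h to untreated and the vertical axis the log2 ratio at 4 h to untreated, with dashed lines at ratios of 2 on the horizontal axis and of 0.8 and 1.5 on the vertical axis. The 49 transient genes are blue, the 216 other genes that were 2-fold higher at 1 h are orange, and 214 of the latter lie above the upper line.

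The window at 4 h admitted values on both sides of the untreated level. Of the transient genes, 44 had a 4 h ratio above 1 and 5 a ratio below 1, and 31 were above the untreated library at 4 h in all 4 mice. In the fit across 12386 genes by edgeR's quasi-likelihood test, 25 of the 49 were called higher than untreated at 4 h, where 19.7% of all genes tested were called higher. Another 2, *Mxd1* and *Elmsan1*, were called lower, where 20.4% of all genes were, and 22 were not called. All 49 were called higher at 1 h (10.0% of all genes were called higher and 10.1% lower) and lower at 4 h than at 1 h (19.8% of all genes), which the choice of genes already fixed. The rule also used the 4 h values, so the calls at 4 h describe the chosen genes and support nothing. With scaling by library size alone, 32.5% of all calls at 1 h were higher in place of 49.8%. The 4 libraries at 1 h were above all 4 untreated libraries in 49 of 49 genes (8.71% of the genes with a mean of at least 2 CPM) and above all 4 libraries at 4 h in 48 (14.3%), *Best1* being the exception. At 4 h, all 4 libraries were above all untreated ones in 19 genes (22.3%), none of the 49 had all 4 below (19.2%), and the groups overlapped in 30.

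The share of the 1 h rise left at 4 h is the 4 h difference from untreated as a percent of the 1 h difference. It comes from the same means as the rule, whose limits of 2 and 1.5 capped it in the transient genes. This share describes the genes and supports nothing. It ran from -12.2% to 47.6% with a median of 13.6%, and was under 25% in 38 of the 49 genes. The other 11, among them *Tgif1*, *Nfkbid*, *Slc16a6* and *Tex2*, had 1 h ratios of 2.03 to 2.69 and 4 h ratios of 1.32 to 1.5. Among the 214 sustained genes the median was 64.2%, and 38 of them (17.8%) also kept under 25% of the rise. The 4 h ratio that split the sets enters this share, so the difference between them was built into the choice. *Fosb* kept 1.22% of its rise and *Nr4a1* 3.19%, and both were left out by the ratio alone because their rises were so large that a small remainder still exceeded 1.5 times the untreated level.

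The transient genes fell into 7 groups by what their products are known to do, assigned after the genes were known. Transcription and chromatin took 14 genes, with a median 1 h ratio of 2.88. *Klf4*, a zinc finger transcription factor known in monocyte differentiation and in alternative activation of macrophages, had the highest ratio. Its level was 9.88, 10.0, 8.10 and 13.1 CPM in the untreated libraries of mice 1 to 4, 133, 126, 119 and 103 CPM at 1 h, and 11.7, 9.32, 11.7 and 12.0 CPM at 4 h. Each 1 h library stood far above the other 8, and the 4 h libraries lay within the untreated range. The ratios were 11.6 at 1 h and 1.09 at 4 h, with 0.830% of the rise left.

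The 120 bases below are shown because *Klf4* had the strongest response and the window before its start holds a CRE half-site, TGACG, read on the opposite strand. They lie upstream of the gene on the minus strand (RefSeq window on GRCm38, chr4:55532606-55532725, no annotated exon), with the half-site in capitals as CGTCA, 232 bases before the start.
Klf4: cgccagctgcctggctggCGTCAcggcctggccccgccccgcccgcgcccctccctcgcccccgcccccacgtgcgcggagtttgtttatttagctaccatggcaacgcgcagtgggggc

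*Spty2d1*, which encodes a histone chaperone, was second, with 42.0, 41.2, 38.3 and 41.2 CPM in untreated BMDMs, 371, 316, 271 and 247 CPM at 1 h and 52.4, 56.1, 52.7 and 58.0 CPM at 4 h. It did not come all the way back: all 4 libraries at 4 h were above all untreated ones, at a ratio of 1.35 against 7.40 at 1 h. *Orc1*, a subunit of the origin recognition complex, had 0.343 to 1.34 CPM in untreated cells, 5.52 to 7.56 CPM at 1 h and 0.729 to 1.37 CPM at 4 h. Its ratio of 5.85 rested on as few as 5 counts in an untreated library, and its ratio in single mice ran from 4.53 to 12.7. *Id2*, an inhibitor of basic helix-loop-helix factors, had 45.0, 36.8, 50.7 and 52.8 CPM in untreated cells, 150, 138, 170 and 295 CPM at 1 h and 47.4, 38.0, 53.6 and 103 CPM at 4 h. Mouse 4 was the highest at both times. Its own 4 h ratio was 1.95, the lowest of the other mice was at 1.03, and the ratio of the means was 1.31.

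*Tiparp*, a mono-ADP-ribosyltransferase that represses the aryl hydrocarbon receptor, had 1 h and 4 h ratios of 3.32 and 1.28. *Zfp703*, a zinc finger repressor, had ratios of 3.14 and 1.41, and *Kdm6b*, the demethylase of histone H3 lysine 27, had 2.99 and 1.42. *Csrnp1* at 2.77, *Bend3* at 2.66 and *Myc* at 2.29 were low in these cells, with untreated means of 6.8, 8.13 and 3.15 CPM. *Mxd1*, which pairs with Max and represses targets of Myc, had 36.5, 43.9, 39.3 and 40.3 CPM in untreated cells, 99.0, 114, 99.7 and 93.9 CPM at 1 h and 29.3, 37.2, 30.0 and 33.4 CPM at 4 h. It was below the untreated library of the same mouse in all 4 mice at 4 h, the only one of the 49 of which this was true, and its 4 h ratio of 0.812 was the lowest. *Elmsan1*, a scaffold of a histone deacetylase complex, was at 2.00 at 1 h and 0.884 at 4 h, and was lower than untreated in 3 of 4 mice. *Tgif1*, a homeodomain repressor of TGF-β signaling, had ratios of 2.09 and 1.42, and *Ccnt1*, the cyclin of the elongation kinase P-TEFb, had 2.03 and 1.32.

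Genes of signaling and of mRNA decay, most of whose products limit a signal or destroy mRNA, made up 8 of the 49, with a median 1 h ratio of 2.79. *Zfp36* encodes tristetraprolin, which binds AU-rich elements and recruits the deadenylation machinery. It had 157, 211, 177 and 176 CPM in untreated BMDMs, 439, 502, 447 and 493 CPM at 1 h and 198, 250, 247 and 233 CPM at 4 h. The 1 h libraries were apart from all the others, while the 4 h libraries were higher than untreated in each mouse but overlapped with them as a group. The ratios were 2.61 and 1.29. *Zc3h12a* encodes Regnase-1, an endonuclease that cuts stem-loops in inflammatory mRNAs. Its values were very even, at 38.7, 38.0, 39.3 and 39.5 CPM in untreated cells, 101, 112, 99.7 and 106 CPM at 1 h and 54.5, 53.3, 62.0 and 51.9 CPM at 4 h. None of the 3 groups overlapped, the ratios were 2.69 and 1.43, and 25.2% of the rise was left.

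The NF-κB inhibitors *Nfkbie*, which encodes IκBε, and *Nfkbid*, which encodes the nuclear IκBNS, were both among the genes that stayed somewhat high. *Nfkbie* had 40.7, 47.9, 38.8 and 44.0 CPM in untreated cells, 123, 144, 122 and 130 CPM at 1 h and 58.0, 60.8, 60.4 and 64.0 CPM at 4 h. *Nfkbid* had 18, 16.5, 15.3 and 14.8 CPM in untreated cells, 42.3, 43.1, 33.8 and 32.9 CPM at 1 h and 23.6, 26.6, 23.4 and 21.1 CPM at 4 h. In both genes the 3 groups were separate in order of 1 h, 4 h and untreated, with ratios of 3.03 and 1.42 for *Nfkbie* and of 2.35 and 1.46 for *Nfkbid*. *Pim3*, a serine/threonine kinase, had 11.5, 12.7, 10.8 and 13.7 CPM in untreated cells, 50.7, 57.5, 46.8 and 58.0 CPM at 1 h and 13.9, 17.4, 16.3 and 15.9 CPM at 4 h, and its 1 h ratio of 4.35 was the most even among the strong responders, at 4.21 to 4.51 in single mice.

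*Ppp1r15a* encodes GADD34, which directs protein phosphatase 1 to the initiation factor eIF2α. It had 23.4, 26.7, 22.0 and 22.2 CPM in untreated cells, 76.7, 76.1, 64.2 and 56.9 CPM at 1 h and 29.8, 32.9, 31.3 and 24.7 CPM at 4 h, with ratios of 2.89 and 1.26. The 4 h libraries overlapped with the untreated ones. *Bambi*, a decoy receptor for TGF-β family ligands, had 6.02, 4.80, 4.32 and 4.94 CPM in untreated cells, 37.6, 33.3, 25.6 and 27.0 CPM at 1 h and 4.81, 4.82, 4.62 and 4.51 CPM at 4 h. Its ratios were 6.06 and 0.936, and its 4 h libraries lay within the untreated range. *Dusp16*, a phosphatase of the stress-activated MAP kinases, had ratios of 2.47 and 1.01, and its 4 h ratio in single mice spread from 0.771 to 1.29.

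The full palindromic CRE, TGACGTCA, was in the promoter windows of *Nfkbid*, *Ppp1r15a* and the Arf-like GTPase gene *Arl5b*, in 1.79% of all 32851 windows of the same length and in 3.08% of the 10727 windows of genes with a mean of at least 2 CPM. The stretches with the element in capitals are shown because these are the transient genes in which it was found. They are RefSeq sequence on GRCm38, read 5′ to 3′ on the strand of the gene. The *Nfkbid* stretch (chr7:30422286-30422405, plus strand) ends at a start inside the annotated gene and overlaps no exon, with the element 51 bases before that start. The *Ppp1r15a* stretch (chr7:45526269-45526298, minus strand) abuts the gene, with the element 12 bases before the start. The *Arl5b* stretch (chr2:15055188-15055217, plus strand) lies inside the annotated gene outside its exons, 121 bases before an internal start.
Nfkbid: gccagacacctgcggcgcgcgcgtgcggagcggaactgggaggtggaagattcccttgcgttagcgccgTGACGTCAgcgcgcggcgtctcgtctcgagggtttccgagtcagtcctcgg
Ppp1r15a: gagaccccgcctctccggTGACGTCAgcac
Arl5b: caggcgcccgcTGACGTCAgcgcgccgacg

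Genes of the cytoskeleton, the nuclear envelope and membrane lipids numbered 6, with a median 1 h ratio of 2.33. *Ndel1*, a regulator of the microtubule motor dynein, led them with 70.3, 69.4, 79.1 and 78.7 CPM in untreated BMDMs, 390, 403, 336 and 330 CPM at 1 h and 81.1, 74.8, 78.2 and 81.8 CPM at 4 h. The 4 h libraries overlapped with the untreated ones, and the ratios were 4.90 at 1 h and 1.06 at 4 h. *Plek*, which encodes pleckstrin, a protein kinase C substrate that acts on actin in blood cells, had the highest CPM of the 49, with 385, 354, 410 and 345 CPM in untreated cells, 1060, 935, 913 and 761 CPM at 1 h and 451, 399, 404 and 431 CPM at 4 h. Its 1 h libraries stood apart, and the ratios were 2.46 and 1.13. *Jmy*, an actin nucleator, had ratios of 2.44 and 1.02. *Samd8* at 2.23, an enzyme of sphingolipid synthesis, *Lemd3* at 2.14, an inner nuclear membrane protein, and *Tex2* at 2.07 had 4 h ratios of 1.23, 1.32 and 1.40.

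The *Ndel1* stretch is shown because this gene had the strongest response outside the transcription and chromatin group and the signaling and mRNA decay group. The stretch holds a CRE half-site. It lies inside the annotated gene outside its exons (RefSeq window on GRCm38, chr11:68853166-68853285, minus strand), with CGTCA in capitals 102 bases before an internal start. The half-site TGACG, on either strand and counting those within the full element, was in 20.8% of all windows and in 32.0% of those of genes with a mean of at least 2 CPM. It was found in 23 of the 38 transient genes with a window. This is a count of genes, which have 54 windows in all, and no share over genes was computed. The count is therefore not compared with the shares of windows.
Ndel1: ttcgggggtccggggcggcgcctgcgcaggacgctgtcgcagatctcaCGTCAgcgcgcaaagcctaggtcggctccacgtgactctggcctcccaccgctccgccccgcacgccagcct

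Among the 6 genes of ubiquitin and membrane traffic the median 1 h ratio was 2.37. *Arl5b* had 13.7, 18.4, 21.2 and 11.5 CPM in untreated cells, 47.2, 81.5, 61.4 and 36.5 CPM at 1 h and 13.6, 23.9, 20.0 and 17.5 CPM at 4 h. The mice differed in level, with mouse 2 above mice 1 and 4 at every time, and the ratio of 3.48 at 1 h was 2.89 to 4.41 in single mice. *Tbc1d30*, a Rab GTPase-activating protein, had 2.79 to 4.26 CPM in untreated cells, 14.2 to 18.9 CPM at 1 h and 2.27 to 6.45 CPM at 4 h, with a ratio of 4.59 at 1 h. The deubiquitinase *Usp36* returned to 1.08 from 2.47 and the RING protein gene *Lonrf3* to 0.971 from 2.03, while *Rabgef1*, an exchange factor for Rab5, was at 2.27 and 1.32 and *Usp38* at 2.10 and 1.22. RNA processing had 3 members, *Cwc25* of the spliceosome at 3.13 and 1.19, *Lsm12* at 2.13 and 1.24, and *Trmt61b* at 2.83 and 1.09, which is annotated as a noncoding antisense gene in the mouse.

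Transport, ions and metals took 8 genes with a median 1 h ratio of 2.24. *Mt2*, a metallothionein that binds zinc and copper, had 14.1, 16.0, 13.9 and 18.7 CPM in untreated cells, 43.0, 53.5, 41.5 and 49.1 CPM at 1 h and 29.9, 18.2, 20.3 and 22.4 CPM at 4 h, with mouse 1 the highest at 4 h. *Slc30a1*, the zinc exporter ZnT1, had 31.6, 33.9, 29.9 and 35.5 CPM in untreated cells, 77.9, 72.6, 64.9 and 65.4 CPM at 1 h and 33.5, 33.0, 31.9 and 37.2 CPM at 4 h. Both zinc-handling genes were higher at 1 h in every library, and *Slc30a1* went back to 1.04 where *Mt2* was at 1.45. The cationic amino acid transporter gene *Slc7a1* at 2.25, the monocarboxylate transporter family gene *Slc16a6* at 2.22 and the mitochondrial carrier gene *Slc25a32* at 2.35 had 4 h ratios of 1.46, 1.47 and 1.28. The potassium channel gene *Kcna3*, the calcium sensor gene *Ncs1* and the anion channel gene *Best1* were scarce, with untreated means of 1.35, 3.51 and 1.37 CPM.

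The other 4 genes code for a secreted protein or are little characterised. *Gm44423*, whose biotype is unsettled in the annotation, had 0.745 to 1.68 CPM in untreated cells, 4.56 to 6.56 CPM at 1 h and 1.65 to 2.11 CPM at 4 h, with ratios of 4.11 and 1.44. The long noncoding *AI504432* starts 1433 bases beyond the end of *Kcna3* on the same strand of chromosome 3, the only pair of transient genes less than 200 kb apart. Its ratios were 2.64 and 1.17, and those of *Kcna3* were 2.76 and 1.16. *Ndnf*, a secreted factor, was at 2.61 and 1.40, and *Fam217b* at 2.44 and 1.38.

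**Figure D2:**
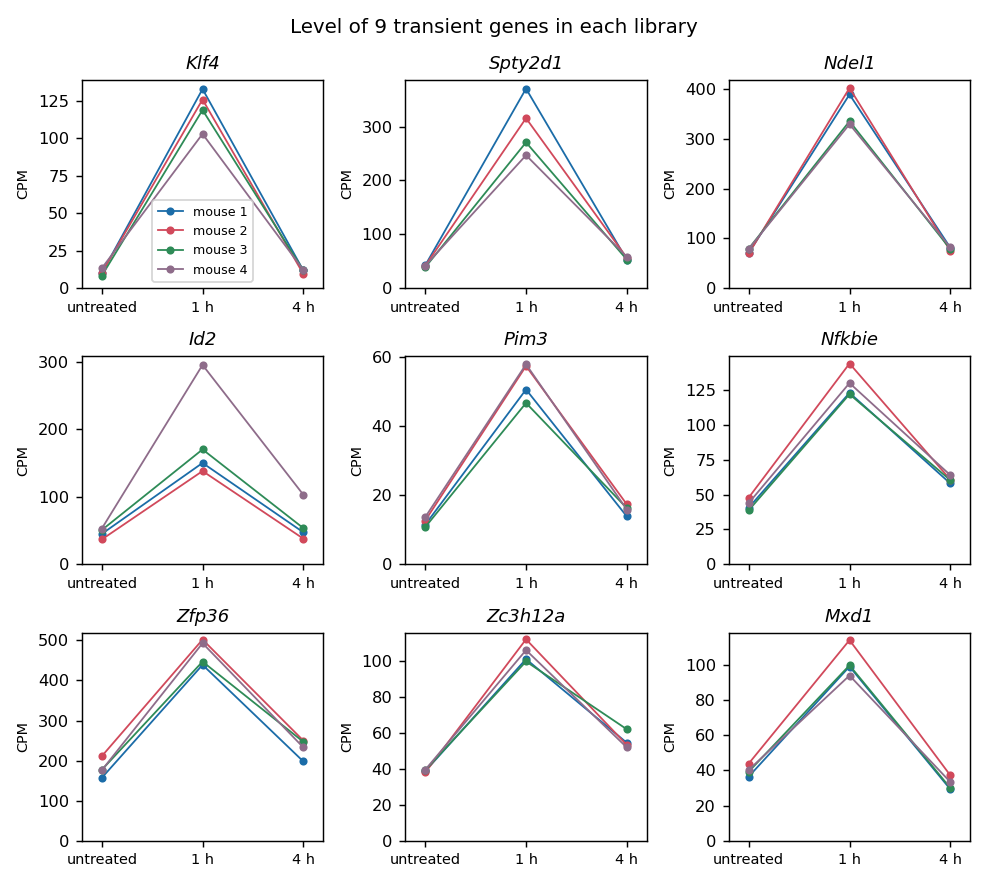
Level in CPM (vertical axis, linear from 0) of 9 transient genes in untreated BMDMs and after 1 h and 4 h of fenoterol, with 1 line per mouse (n = 4). In every panel the 1 h value is the highest of its line. *Klf4* and *Ndel1* come back to the untreated level, *Zc3h12a* and *Nfkbie* stop above it and *Mxd1* goes below it.

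Per kilobase of the longest transcript, the level of the transient genes in untreated BMDMs ran from 0.120 CPM per kb for *Ndnf* to 91.0 for *Plek*, with a median of 5.34. At 1 h the median was 13.4 CPM per kb and at 4 h 6.46. After *Plek*, *Zfp36* had the highest level per length, at 64.6, 169 and 83.2 CPM per kb in untreated cells, at 1 h and at 4 h. *Klf4*, with the highest ratio, went from 3.39 to 39.7 and back to 3.69 CPM per kb, so that at 1 h it was close to *Cwc25* at 39.3 and *Zc3h12a* at 38.0.

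The rule used every mouse, so the values in single mice describe the spread and support nothing. The median 1 h ratio over the 49 genes was 2.76, 2.77, 2.54 and 2.40 in mice 1 to 4, and the median 4 h ratio 1.18, 1.27, 1.28 and 1.26. Over all genes with a mean of at least 2 CPM the medians were 0.944 to 0.960 at 1 h and 1.02 at 4 h. The ratio reached 2 in 45, 47, 44 and 35 of the 49 genes, fewest in mouse 4, and in all 4 mice in 33 genes. The 4 h ratio was within the window in 44, 40, 35 and 44 genes, fewest in mouse 3. In no mouse was any of the 49 genes higher at 4 h than at 1 h.

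**Figure D3:**
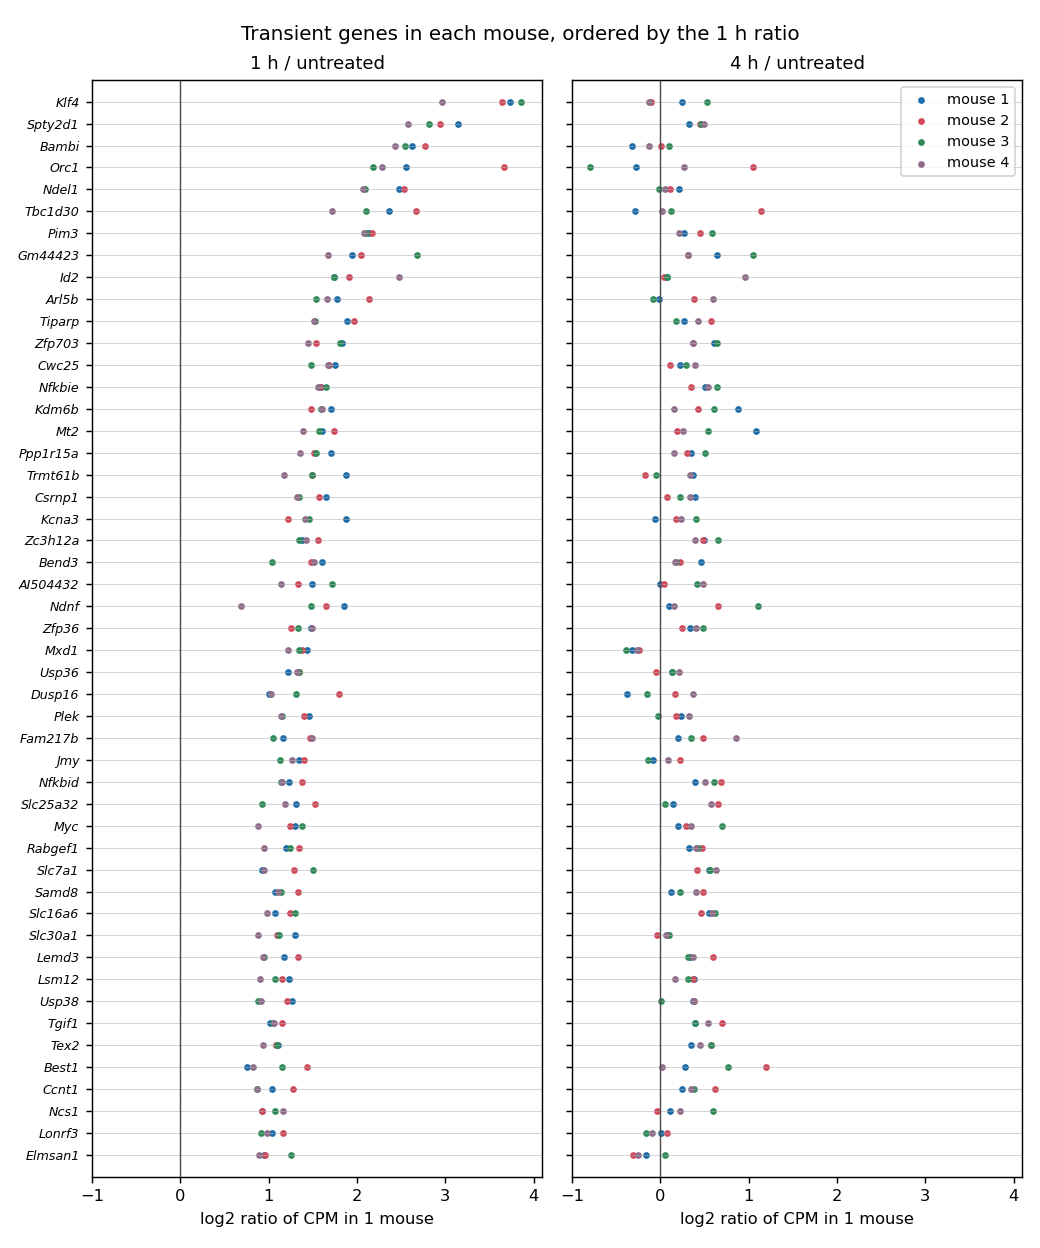
Log2 ratio of CPM to the untreated library of the same mouse for each of the 49 transient genes (rows, ordered by the 1 h ratio), at 1 h on the left and 4 h on the right, with 1 point per mouse. All points at 1 h are right of 0, and at 4 h they scatter around and mostly right of 0, with the widest spread in the scarce genes *Orc1*, *Tbc1d30*, *Ndnf* and *Best1*.

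The pattern was also read in a mouse whose values took no part in the choice of genes. The limits themselves were set with earlier results of these data known, so this is a description and no independent support. The rule was applied to 3 mice and the fourth was read, with the same 2-fold limit and window. With mouse 1 left out 51 genes were chosen, and 39 of them (76.5%) met both limits in mouse 1, against 0.673% of all genes with a mean of at least 2 CPM in the other mice. In mouse 2 it was 33 of 48 genes (68.8%, against 0.549%), in mouse 3 29 of 56 (51.8%, against 0.426%) and in mouse 4 28 of 53 (52.8%, against 0.379%). Every gene chosen on the other 3 mice was above untreated at 1 h in the mouse left out. The median 1 h ratio in the left-out mouse was 2.76, 2.78, 2.57 and 2.28 and the median 4 h ratio 1.18, 1.28, 1.31 and 1.29. Among the genes that missed a limit in the left-out mouse were *Elmsan1*, at 1.92 at 1 h in mouse 1, and *Nfkbie*, at 1.56 at 4 h in mouse 3. The 4 mice were treated in the same study, and their libraries share its design.

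**Figure D4:**
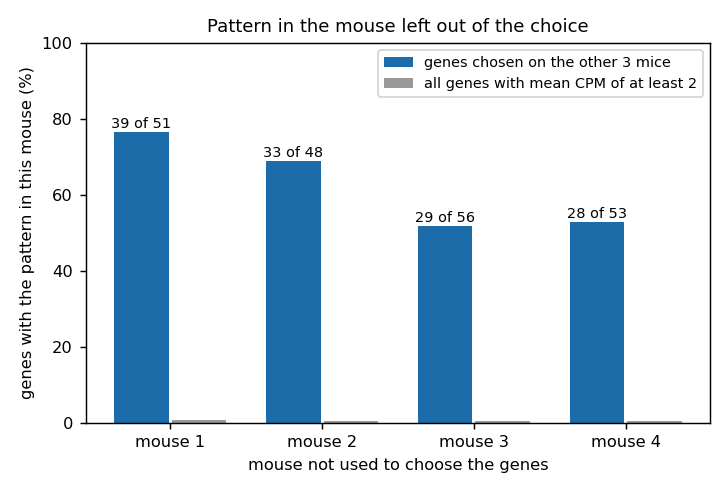
Share of genes, in percent (vertical axis), that were at least 2-fold higher at 1 h and within 0.8 to 1.5 at 4 h in a single mouse (horizontal axis). Blue bars are genes chosen on the other 3 mice, with their numbers above, and gray bars all genes with a mean of at least 2 CPM in those mice. The blue bars stand at 51.8% to 76.5% and the gray ones below 1%.

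Just inside the 1 h limit were *Elmsan1* at 2.004, *Lonrf3* at 2.026 and *Ncs1* at 2.032, and just outside *Tbc1d10a* at 1.987, *Slc20a1* at 1.986 and *Slc19a2* at 1.983. At the upper 4 h limit, *Best1* at 1.497, *Slc16a6* at 1.466 and *Nfkbid* at 1.464 were kept, and *Ccrl2* at 1.506, *Gm6377* at 1.514 and *Gm37352* at 1.515 were not. At the lower limit *Mxd1* at 0.812 was kept, while *Mettl13* at 0.714 and *Maff* at 0.633 fell outside. *Ndnf* at 2.098 and *Best1* at 2.121 CPM were the scarcest genes kept, and *Hbegf*, the heparin-binding EGF-like growth factor, met all else but had a mean of 0.883 CPM.

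On 9 lists of genes known for rapid or cAMP-driven responses, 11 of 368 genes were transient, and 38 of the 49 transient genes were on no list. Of the 278 list genes with a mean of at least 2 CPM 3.96% were transient, against 0.464% of all such genes. Of the 67 list genes that met the 1 h limits 16.4% were transient and 82.1% sustained, near the 18.5% and 80.8% of all 265 genes that met them. The calls below can be read against the shares over all genes tested, 10.0% higher and 10.1% lower at 1 h and 19.7% higher and 20.4% lower at 4 h. The list of mRNA decay, BTG and NF-κB feedback genes had the most, 6 of its 40 tested genes: *Pim3*, *Nfkbie*, *Ppp1r15a*, *Zc3h12a*, *Zfp36* and *Nfkbid*. On this list, 20 of the 40 were called higher and 8 lower at 1 h (median log2 fold change 0.38, against 0.00 over all genes tested), and 14 higher and 12 lower at 4 h (median -0.11, against 0.00). Of its 13 genes that met the 1 h limits, 6 were transient and 7 sustained, among them *Btg2* and *Pim1*. Among other rapidly induced transcription regulators 3 of 46 tested genes were transient (*Id2*, *Csrnp1* and *Myc*), with 22 called higher and 8 lower at 1 h and 18 and 17 at 4 h. The EGR, KLF and NR4A list gave *Klf4* of 18 tested, with 9 called higher and 3 lower at 1 h and 7 and 7 at 4 h, and the MAPK phosphatase list gave *Dusp16* of 22 tested, with 14 and 5 at 1 h and 12 and 4 at 4 h.

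On the other 5 lists no gene was transient. AP-1 and related factors had 22 tested genes, of which 12 were called higher and 6 lower at 1 h and 10 and 8 at 4 h. Of 9 AP-1 genes past the 1 h limits, 8 stayed above 1.5 times untreated at 4 h, *Fos*, *Fosb*, *Fosl2*, *Junb* and *Crem* among them, and *Maff* went below 0.8. All 6 cAMP and GPCR feedback genes past the 1 h limits were sustained (*Arrdc3*, *Pde4b*, *Pde4d*, *Rgs1*, *Rgs2* and *Sik1*), as were all 7 cytokine, growth factor and receptor genes, all 8 transporter and metabolism genes and the 2 cytoskeleton and adhesion genes. Of all genes past the 1 h limits 80.8% were sustained, and these 5 lists were set apart here because they hold no transient gene, so nothing is read from their counts. The cAMP list had 12 of 43 tested genes called higher and 9 lower at 1 h and 18 and 12 at 4 h, the cytokine list 18 and 11 of 55 at 1 h and 20 and 20 at 4 h, the cytoskeleton list 10 and 4 of 31 at 1 h and 12 and 10 at 4 h, and the transporter list 19 and 7 of 35 at 1 h and 17 and 8 at 4 h. The lists were drawn up with earlier results of these data known, so their counts describe these libraries and are no independent support.

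The annotation offers features that the rule did not use. Of the 49 genes 46 were protein coding, and the genes lay on 19 chromosomes. The median span was 22.1 kb in transient, 19 kb in sustained and 23.7 kb in all genes with a mean of at least 2 CPM. A span under 10 kb was found in 17 of the 49 (34.7%), in 28.5% of the sustained and in 23.8% of all such genes. In the longest transcript, 11 of the 49 (22.4%) had at most 3 exons, against 29.0% and 20.0%, so the share of the transient genes was near that of all genes. With the longest protein-coding transcript where a gene has one, an alternative chosen after seeing the data, the shares were 22.4%, 24.3% and 13.3%. In the longest transcript *Kcna3* and *Tgif1* have 1 exon, though *Tgif1* has 3 in its longest coding transcript, *Zfp36*, *Ppp1r15a*, *Zfp703* and *Slc30a1* have 2, and *Myc*, *Mt2* and *Bambi* have 3. The noncoding *AI504432* and the unsettled *Gm44423* are also among the 11. At the other end *Tex2* spans 111277 bases and *Tbc1d30* 87459 bases.

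The median 3′ UTR was 1659 bases in the 46 transient genes that have one, 1497 in the sustained and 1253 in all genes with a mean of at least 2 CPM. The AU-rich pentamer ATTTA occurred at a median of 3.5, 2 and 2 per 3′ UTR and at 2.11, 1.90 and 1.77 per kb of 3′ UTR in all. The longer TATTTAT was in 25 transient genes (54.3%), in 41.0% of the sustained and in 30.7% of all. Counting overlapping copies, *Ppp1r15a* had 4 within a 3′ UTR of 71 bases, *Zfp36* 3 in 774 bases, *Pim3* 2 in 964 bases and *Id2* 2 in 785 bases. *Klf4*, with the highest 1 h ratio, had none, nor had *Bambi*, *Tbc1d30*, *Cwc25*, *Nfkbie*, *Zc3h12a*, *Dusp16* and *Myc*. The transient genes also had longer 3′ UTRs, and these shares carry no test.

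**Figure D5:**
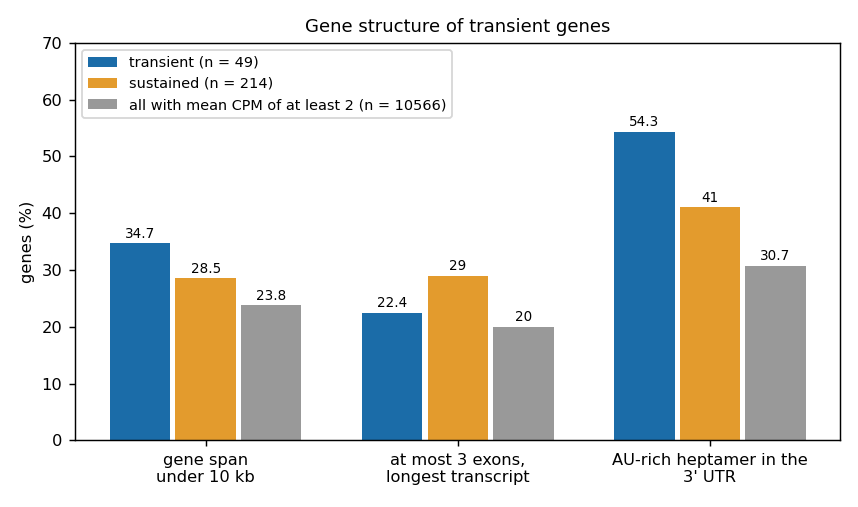
Percent of genes (vertical axis) in the transient set (blue), the sustained set (orange) and all genes with a mean of at least 2 CPM (gray) that span under 10 kb, have at most 3 exons in the longest transcript, or carry the AU-rich heptamer in the 3′ UTR. For the heptamer the percent is of genes with an annotated 3′ UTR (46, 205 and 10205), and the transient set stands at 54.3% against 41.0% and 30.7%.

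A promoter window of 250 bases before to 50 after the start was found for 38 of the 49 genes (77.6%), below the 80% needed. A comparison over the set is therefore void. Genes with a match are named or counted, and nothing is read from the counts. The second share after each motif is that in windows of genes with a mean of at least 2 CPM. The AP-1 site TGACTCA was in windows of *Csrnp1*, *Mt2*, *Nfkbie*, *Slc7a1* and *Usp38* and in 5.20% and 3.61% of windows. The NF-κB site was in those of *Arl5b*, *Elmsan1*, *Nfkbid*, *Nfkbie*, *Pim3* and *Tgif1* and in 8.46% and 10.5% of windows, and the CArG box of serum response factor in those of *Elmsan1* and *Zfp36* and in 1.63% and 1.23% of windows. TATAAA, in 13.6% and 6.8% of windows, was found in windows of *Bend3*, *Lonrf3*, *Ndel1*, *Ppp1r15a* and *Slc7a1*, and CCAAT, in 37.4% and 37.8%, in windows of 15 genes such as *Id2*, *Mxd1* and *Pim3*. The EGR site GCGTGGGCG, in 0.612% and 1.24%, was in no window of the 38. Both strands were searched, and a match of letters is not a bound site.

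Reads from overlapping genes could enter a few of these values, since the strand setting of the counting is not given in the sources used here. In 16 of the 49 genes, an exon of a gene on the opposite strand overlapped. For *Slc16a6* the overlap with *Amz2* was 21.5% of the exonic length, and *Amz2* had 7601 counts in all libraries against its 12257. *Orc1* overlapped by 10.8% with *Gm12743*, which had 216 counts against its 659. For *Mt2* it was 73.5%, with *Gm45774*, which had 13 counts. Stretches of 50 bases shared with another gene's transcripts made up 11% of *Lsm12*, shared with *Gm9727* with 5 counts in all, and at most 1.76% of any of the others.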

How the data were processed

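The authors sequenced stranded mRNA libraries of BMDMs from 4 mice as single-end reads of 50 bases, mapped them to GRCm38 with TopHat2 2.0.11 and counted reads per gene with HTSeq 0.8.0. The authors deposited raw counts per gene, without normalization, and every per-sample column was used. The strand option and the annotation release are not given in the sources used here. In the paper, vsn and limma were used. For this work the counts were fitted with edgeR 4.0.16 in R 4.3.3 (filterByExpr, TMM, quasi-likelihood test, 1 mean per group over 12 libraries), with Benjamini-Hochberg adjustment over 12386 genes per contrast and a threshold of 0.05. Both contrasts share the untreated libraries. The fit was also run on simulated counts that had no mouse effect and no change at 4 h. The real counts differ in both, so nothing is read from that run here.

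The transient genes were picked on CPM by library total with the limits given above, and these genes, the 9 lists and the tests were chosen with earlier results of these data known. All 49 genes passed edgeR's filter on low counts. The genes named are those on a list, the 10 with the highest mean CPM, the 10 with the highest 1 h ratio, the 5 highest and lowest at 4 h and those next to a limit. The rule also admits up to 3 other genes per list, which are named here only where a count turns on them. The other transient genes were named after their values were seen.

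By their titles, libraries with 1 number are from 1 mouse. Their deviations from the group means correlated at r = 0.290 to 0.561 (12 pairs, 12386 genes), against -0.304 to 0.0912 in 36 pairs of different mice, so the mouse was tried as a block. Replicates differed beyond counting error, with chi-square per degree of freedom of 9.13 to 18.7.

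Gene positions and transcripts were from GENCODE M21 (53274 genes matched) and promoter sequences from RefSeq on GRCm38. Exons, exonic length and 3′ UTRs are those of 1 transcript per gene, the longest one for exons and lengths. The longest protein-coding transcript was an alternative chosen after seeing the data, as was the AU-rich description. Figures were drawn with matplotlib 3.10.9.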

Additional observations from a re-analysis of the deposited data

Results flagged for a closer look

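In 147 sets of 4 libraries (49 genes in 3 groups), 3 had a sample far from the other 3 by Dixon's ratio, which chance alone gives in about 1 set in 20. *Best1* at 1 h was 3.34 CPM in mouse 2 and 2.74 to 2.77 CPM in the others, and its 1 h ratio without that library was 1.95, outside the limit of 2. *Klf4* at 4 h was 9.32 CPM in mouse 2 and 11.7 to 12.0 CPM in the others, with a 4 h ratio of 1.15 without it. *Trmt61b* in untreated cells was 3.41 CPM in mouse 1 and 4.60 to 4.83 CPM in the others, with a 1 h ratio of 2.65 without it.

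The effect at 4 h differed from that at 1 h in 4773 of 12386 genes in edgeR's test of the difference itself. The transient genes are among them by their choice. Outside the 49, *Maff*, a small Maf factor, had a log2 fold change of -2.35 from 1 h to 4 h, the clock gene *Per1* -1.82, the antiproliferative *Btg2* -2.26 and *Mettl13* -1.91, and each was past the threshold. *Per1* and *Btg2* were left out at 4 h ratios of 1.72 and 1.78, and *Maff* and *Mettl13* lay under the lower limit.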

How the results depend on the processing

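The number of transient genes was set by the limits of the rule more than by any library. It was 20 with a 4 h window of 0.8 to 1.2, 14 with a 1 h ratio of at least 3, and 134 with a 1 h ratio of at least 1.5, in place of 49. It was 62 with TMM scaling, which kept 48 of the 49 and lost *Mxd1*, and 63 with DESeq2 size factors, which kept all 49. With 1 library left out it was 43 to 53, and with 1 mouse left out 48 to 56. A pseudocount of 1, means of at least 1 or 10 CPM, a window of 0.67 to 1.5 and no condition on pairs gave 39 to 53.

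Calls across all genes stayed within 1.5 times under every setting run. With 1 library left out there were 2100 to 2482 at 1 h (main 2493), 4463 to 4976 at 4 h (main 4958) and 4209 to 4735 between the times (main 4773). With the mouse as a block, following the pairing, there were 3348, 5870 and 5775, and 29 of the 49 genes were called at 4 h in place of 27. It was 22 with limma-voom and 20 to 26 with 1 library left out. List genes called were 197 at 1 h and 226 at 4 h, and 228 and 249 with the block. Scaling by library size put the median log2 fold change of all genes at -0.073 at 1 h (main -0.005) and at 0.10 from 1 h to 4 h (main 0.007), where 65.7% of calls were higher in place of 48.6%. The median exonic length of the transient genes was 4191 bases, and 4653 with all exons merged. No transient gene's fitted log2 fold change at 1 h changed sign. At 4 h, 6 changed sign under some setting (*Dusp16*, *Id2*, *Jmy*, *Orc1*, *Slc30a1* and *Trmt61b*), none of them called. Genes under about 2 CPM, such as *Orc1*, *Gm44423*, *Kcna3*, *Ndnf* and *Best1* in untreated cells, are limited by depth.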
